A study of Mus musculus with 24 samples.

Results

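Itgax, Itgad, Cox6a2, Plcb1 and Plcb4 are 5 of the 24421 genes counted in sorted mouse splenic conventional dendritic cells (cDCs). They were chosen by name because their counts were higher in libraries from mice with a CD11c-Cre driver than in libraries from mice without it, in 2 lines of mice. Itgax, Itgad and Cox6a2 are neighbours on chromosome 7, and Plcb1 and Plcb4 are neighbours on chromosome 2. Their Cre-positive and Cre-negative levels are the values they were selected on, so these levels are given as a description with no test. Other differences, between subsets and between lines, were not themselves used in the choice and were tested. They compare libraries whose levels entered the choice, so these p-values are not independent of it.

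The series holds 24 RNA sequencing libraries of cDC1 and cDC2, the main subsets of conventional dendritic cells, sorted by flow cytometry from spleens of untreated C57Bl/6 mice aged 6 to 12 weeks. In the deletion line, Cre-positive mice were CD11cCRExZeb2fl/fl and their Cre-negative littermate controls Zeb2fl/fl, so both carried floxed Zeb2. In the transgene line, Cre-positive mice were CD11cCRExR26-Zeb2Tg/Tg and their controls R26-Zeb2Tg/Tg, so both carried the Zeb2 transgene at the Rosa26 locus. Each subset of each line had 2 Cre-negative and 4 Cre-positive libraries, which gives 8 groups. No Cre-positive group lacks a Zeb2 allele for Cre to act on, so the driver, the Cre protein and the change in Zeb2 cannot be told apart within a line. The labels do not say which stretch of DNA the driver holds or where it lies in the genome, and reads from a gene and from any copy of it on the driver cannot be told apart. Whether replicate libraries stem from different mice is not stated either, and p-values therefore reflect only how far these libraries vary, which may be partly technical.

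Itgax encodes CD11c, the alpha X chain of a beta 2 integrin, which pairs with CD18, binds complement-coated particles and is the surface protein most used to recognise dendritic cells. Regulatory DNA of Itgax is the usual basis of drivers named CD11c-Cre. Itgad encodes CD11d, the alpha D chain of the same integrin family, known from splenic red pulp macrophages. Cox6a2 encodes the heart and muscle form of subunit 6A of cytochrome c oxidase, the last complex of the mitochondrial respiratory chain. Plcb1 and Plcb4 encode beta forms of phospholipase C, which G proteins of the Gq class switch on, and which split a membrane lipid into the messengers inositol trisphosphate and diacylglycerol.

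The 5 genes form a pair of tight neighbourhoods in the mm10 genome (positions from RefSeq annotation of GRCm38.p6). Itgax spans chr7:128129526-128150657 on the plus strand, and Itgad begins 23.3 kb further on, at chr7:128173933-128205504, on the same strand. Cox6a2 lies at chr7:128205435-128206366 on the minus strand and meets Itgad tail to tail, with 70 bases in common. Itgam, the gene of the integrin chain CD11b, ends 11 kb before Itgax. Plcb1 spans chr2:134786164-135475258 and Plcb4 chr2:135658603-136014602, both on the plus strand, with a gap of 183 kb between them.

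Promoter windows, from 250 bases before to 50 bases after an annotated start, were found in the RefSeq table of GRCm38.p6 for 3 of the 5 genes: Itgax, Plcb1 and Plcb4, the last with 2 start sites. They are shown because members of both neighbourhoods moved together and because the driver is named after Itgax. They were searched on both strands for CACCTG, the E-box that ZEB proteins bind, for GAGGAA, the core of the PU.1 site, and for ACCACA, the core of the Runx site. The windows of Itgax, Plcb1 and the second Plcb4 start follow, 5′ to 3′ on the plus strand, with matches to these motifs in capitals.
Itgax, chr7:128129300-128129599: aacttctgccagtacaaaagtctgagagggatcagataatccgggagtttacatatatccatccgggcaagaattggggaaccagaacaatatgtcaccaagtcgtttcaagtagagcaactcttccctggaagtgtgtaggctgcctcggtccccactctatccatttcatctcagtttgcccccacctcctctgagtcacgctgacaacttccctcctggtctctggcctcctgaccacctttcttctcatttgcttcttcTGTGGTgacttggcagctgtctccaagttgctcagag
Plcb1, chr2:134785914-134786213: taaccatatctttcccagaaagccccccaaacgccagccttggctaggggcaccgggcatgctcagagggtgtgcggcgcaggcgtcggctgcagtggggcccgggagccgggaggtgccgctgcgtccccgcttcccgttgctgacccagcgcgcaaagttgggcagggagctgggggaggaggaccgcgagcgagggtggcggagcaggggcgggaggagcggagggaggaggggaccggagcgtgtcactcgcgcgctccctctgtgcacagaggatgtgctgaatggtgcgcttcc
Plcb4, second start, chr2:135764588-135764887: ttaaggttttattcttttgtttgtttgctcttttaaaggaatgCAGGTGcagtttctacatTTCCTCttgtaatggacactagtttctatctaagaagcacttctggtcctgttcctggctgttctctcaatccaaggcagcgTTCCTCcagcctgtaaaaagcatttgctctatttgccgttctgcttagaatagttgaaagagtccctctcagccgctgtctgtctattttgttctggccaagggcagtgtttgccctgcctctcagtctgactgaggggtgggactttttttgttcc
The Itgax window held 1 Runx core, on the minus strand, with its first base at position 14 from the start site. The second Plcb4 window held 1 E-box at position -207 and PU.1 cores at positions -189 and -107, all on the minus strand. No match was found in the Plcb1 window or in the window of the first Plcb4 start, at chr2:135659297-135659596, and no matches overlapped each other. Of 32851 promoter windows in the table, 20.2% held the E-box, 28.3% the PU.1 core and 16.8% the Runx core, so a match in these windows is common. Base composition differed widely between the windows, with 50% G and C for Itgax, 69.7% for Plcb1, 84% for the first and 44.3% for the second Plcb4 start, against a median of 52.7% over all windows.

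Libraries held 21972763 to 36094786 counts in genes, and 13396 to 14260 genes had a count. Levels are given as CPM, gene counts relative to library size with scaling by the trimmed mean of M-values (TMM), and 13166 genes passed the filter on low counts, with all 5 members among them. Summed over 10 markers of each subset, cDC1 markers stood at 9907 to 12430 CPM in cDC1 controls and at 230.3 to 282.2 in cDC2 controls, and cDC2 markers at 284.4 to 356.9 and at 3024 to 3659. Zeb2, the targeted gene, moved in opposite directions in the 2 lines. In cDC2 its mean was 154 CPM in controls and 35.8 with Cre in the deletion line, while in the transgene line it was 104 and 153 CPM. In cDC1 its mean was 1.53 and 1.22 CPM in the deletion line, with overlapping libraries, and 2.81 and 44.2 in the transgene line. A bulk level does not tell a change in the RNA per cell from a change in the share of cells that carry it.

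Itgax was the most abundant of the 5 genes in every group, and with Cre it changed least in fold and most in CPM. Its level in cDC1 controls of the deletion line was 524 and 581 CPM, and that of the 4 Cre-positive libraries 708, 722, 726 and 638. For cDC1 of the transgene line the controls measured 501 and 575 CPM, and the Cre-positive libraries 647, 660, 693 and 607. In both lines every Cre-positive cDC1 library was thus above both controls, by 1.27-fold and 1.21-fold between the means. Groups this small can separate completely by chance. The share of all genes that separated in a single comparison is not given, here or for the other members below. Such separation is therefore a description without a background. Among cDC2 libraries of the deletion line the controls measured 1189 and 1042 CPM against 1246, 1464, 1184 and 1213 with Cre. Here the groups overlapped, since 1 Cre-positive library was below the higher control, and the means were 1.15-fold apart. The cDC2 controls of the transgene line measured 916 and 963 CPM and the Cre-positive libraries 1058, 1074, 1114 and 1112, with no overlap and means 1.16-fold apart. The difference between the means was alike in size in all 4 comparisons, at 146, 114, 161 and 150 CPM in the order just given.

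Itgad, 23.3 kb downstream, was a gene of low level in controls of both subsets and rose to its highest level in cDC2 with Cre (values of the choice, described only). Itgad in cDC1 controls of the deletion line measured 1.32 and 2.69 CPM, and the Cre-positive libraries 8.46, 8.69, 11.6 and 10.0. Its cDC1 controls of the transgene line measured 3.82 and 5.07 CPM, and the Cre-positive libraries 8.41, 11.7, 8.30 and 8.03. The Cre-positive levels of cDC1 in the 2 lines lay in the same range, while the control levels did not, so the means differed 4.83-fold in the deletion line and 2.05-fold in the transgene line. Its cDC2 controls of the deletion line measured 6.20 and 6.65 CPM and the Cre-positive libraries 53.3, 70.1, 72.2 and 70.8, a 10.4-fold difference of means. For cDC2 of the transgene line the controls measured 5.98 and 5.32 CPM and the Cre-positive libraries 35.2, 36.8, 39.0 and 46.2, a 6.96-fold difference. No Cre-positive library overlapped its controls in any of the 4 comparisons. The fitted log2 difference in cDC1 of the deletion line was 2.28 (SE 0.25). It was 2.89 without control replicate 2, the library in which Itgad was higher, and 1.84 without control replicate 1. SE, here and below, is an approximation: the log2 value, without its sign, divided by the square root of its F statistic.

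Cox6a2, the tail-to-tail neighbour of Itgad, was close to absent in controls. Cox6a2 in cDC1 controls of the deletion line held 3 and 5 counts (0.113 and 0.210 CPM), and the Cre-positive libraries 45, 48, 27 and 26 counts (1.71, 2.00, 1.19 and 1.12 CPM). The transgene line's cDC1 controls held 5 counts and 1 count (0.201 and 0.0492 CPM) and the Cre-positive libraries 21, 8, 12 and 10 (0.755, 0.339, 0.465 and 0.290 CPM). This was the smallest rise of Cox6a2, 3.70-fold between means, and it rests on few counts: the ratio of summed counts, scaled for depth, was 3.44 with a 95% counting interval of 1.48 to 9.81. Moving to cDC2, the controls of the deletion line measured 0.336 and 0.577 CPM and the Cre-positive libraries 15.2, 23.3, 16.1 and 12.8. Those of the transgene line measured 1.16 and 0.564 CPM and the Cre-positive libraries 16.2, 22.9, 14.6 and 8.46. These differences of means were 36.9-fold and 18-fold, and the groups overlapped in none of the 4 comparisons. Single controls weighed on the fitted log2 values. In cDC1 of the transgene line the value was 1.77 (SE 0.72), 3.11 without control replicate 1 and 1.18 without control replicate 2. In cDC2 of that line it was 4.17 (SE 0.46), 4.77 without control replicate 1 and 3.74 without control replicate 2.

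Plcb1 was at the limit of detection without Cre. All 8 control libraries together held 6 counts, with 0 to 2 in a library: 2 in cDC1 and 1 in cDC2 of the deletion line, and 1 in cDC1 and 2 in cDC2 of the transgene line. With Cre, cDC1 of the deletion line held 25, 12, 8 and 16 counts (0.952, 0.499, 0.353 and 0.690 CPM), and cDC1 of the transgene line 38, 40, 38 and 20 (1.37, 1.70, 1.47 and 0.580 CPM). Every Cre-positive library of cDC1 thus held more Plcb1 counts than all 8 controls together. Far more was found in Cre-positive cDC2 of the deletion line, with 345, 572, 357 and 485 counts (13.4, 22.7, 13.8 and 18.8 CPM). Their counterparts in the transgene line held 135, 115, 90 and 111 (5.09, 4.33, 3.73 and 4.19 CPM). Cre-positive cDC2 of the deletion line stood apart from all other groups, its lowest library lying above the highest of the transgene line.

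With so few control counts the size of the Plcb1 rise is known only loosely. The ratio of summed counts, scaled for depth, was 16.0 in cDC1 of the deletion line (95% counting interval 4.24 to 135) and 55.0 in cDC1 of the transgene line (9.71 to 2189). It was 904 in cDC2 of the deletion line (162 to 35730) and 120 in cDC2 of the transgene line (33.0 to 993). These intervals cover counting error only. Those of cDC1 and cDC2 of the deletion line do not overlap, and all other pairs do. The fitted log2 values moved with single controls, from 4.82 to 8.04 in cDC1 of the transgene line, from 8.63 to 11.79 in cDC2 of the deletion line and from 5.85 to 9.80 in cDC2 of the transgene line, on leaving out 1 or the other control of the group.

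Plcb4, 183 kb beyond Plcb1, differed from the other members in that controls of cDC1 expressed it more than controls of cDC2. Plcb4 in cDC1 controls of the deletion line measured 14.4 and 11.3 CPM and the Cre-positive libraries 23.2, 24.0, 25.0 and 22.5, a 1.84-fold difference of means. The transgene line's cDC1 controls measured 11.2 and 11.8 CPM and the Cre-positive libraries 16.0, 13.9, 17.6 and 17.7, a 1.42-fold difference. These rises in cDC1 were small beside those in cDC2. For cDC2 of the deletion line the controls measured 2.76 and 3.19 CPM and the Cre-positive libraries 31.9, 32.6, 37.6 and 36.2, an 11.6-fold difference. The transgene line's cDC2 controls measured 2.32 and 2.04 CPM and the Cre-positive libraries 32.4, 28.2, 29.6 and 37.0, a 14.6-fold difference. The groups did not overlap in any of the 4 comparisons.

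**Figure D1:**
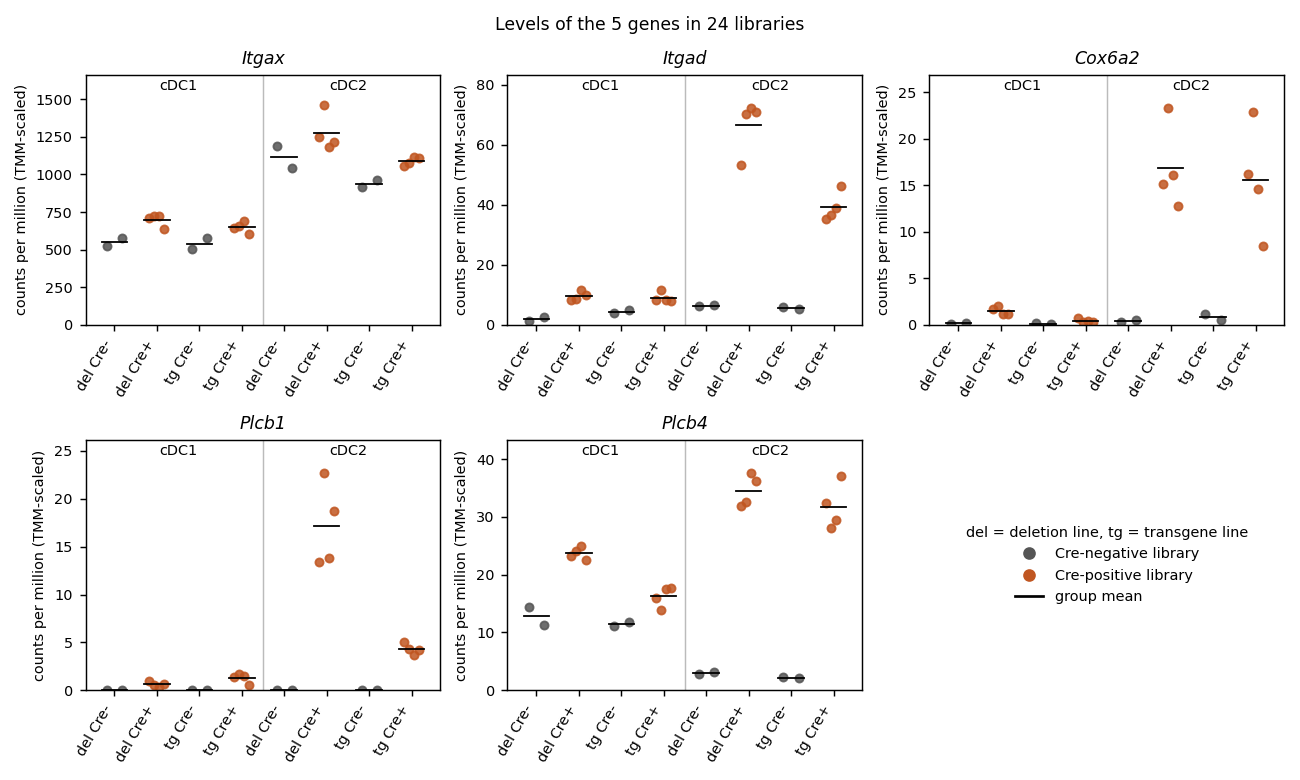
Each panel plots 1 gene, with TMM-scaled CPM on the vertical axis and the 8 groups (subset, line and Cre) on the horizontal axis. Points are libraries and bars are group means (2 Cre-negative and 4 Cre-positive libraries per group). Cre-positive points of Itgad, Cox6a2, Plcb1 and Plcb4 lie above the controls of their subset and line throughout, while Itgax overlaps in cDC2 of the deletion line.

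On a scale per kilobase of exon (gene models of GENCODE for mm10), the members differed in level by orders of magnitude. In Cre-positive cDC2 of the deletion line the mean level was 295 CPM per kb for Itgax, 24.8 for Cox6a2, 15.5 for Itgad, 6.63 for Plcb4 and 2.28 for Plcb1. In control cDC2 of that line it was 257 CPM per kb for Itgax, 1.50 for Itgad, 0.671 for Cox6a2, 0.570 for Plcb4 and 0.00256 for Plcb1. Cox6a2 thus went from a level per kb below that of Itgad to one above it. The 70 bases that the 2 genes share are a small part of either gene, and the strand setting of the counting is not given in the sources used here. The same limit holds for 4931431B13Rik, an antisense gene inside Itgad at chr7:128192050-128203328 on the minus strand, which held 82 counts in all libraries together. Of these, 10 and 15 were in Cre-positive cDC1 and cDC2 of the deletion line and 23 and 32 in those of the transgene line, against 0, 2, 0 and 0 in the matching controls. Where exons of this gene and of Itgad overlap, their reads cannot be told apart without strand, and that overlap was not measured.

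Set against all genes, calls of the members follow in part from the choice itself, so they are a description and no test. With Benjamini-Hochberg adjusted p-values of the quasi-likelihood test in edgeR (threshold 0.05), 2 members (Itgad and Plcb4) were among the genes called higher with Cre in cDC1 of the deletion line, where 0.0228% of the genes tested were called higher. In cDC1 of the transgene line the call took in 3 members (Itgad, Plcb1 and Plcb4) with a background of 3.58%. In cDC2 it took in 4 members, all but Itgax, with a background of 2.33% in the deletion line and 0.114% in the transgene line. Itgax was called in none of the 4 comparisons, and its lowest fitted value was 0.20 on the log2 scale. Called genes were few in cDC1 of the deletion line: Itgad, Plcb4 and Zfp831, a zinc-finger gene that went from 0.0376 to 0.929 CPM (adjusted p = 0.0211). In cDC2 of the transgene line 4 of the 15 genes called higher were members. Single controls moved these backgrounds: the number called higher went from 3 to 1 without control replicate 2 in cDC1 of the deletion line, from 472 to 300 and 267 without control replicate 1 or 2 in cDC1 of the transgene line, from 307 to 72 and 153 in cDC2 of the deletion line, and from 15 to 7 in cDC2 of the transgene line without either control.

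Itgad and Plcb4 were the 2 genes called higher in all 4 comparisons, which is 0.0152% of the genes tested. Their calls rest on the values used in the choice, so they describe the members and do not test them. Under DESeq2 they were the same 2 genes, and in fits of each comparison's libraries alone there were none. That number fell to 0 without Cre-negative replicate 1 in cDC1 of the transgene line. It fell to 1, Itgad, without Cre-negative replicate 2 or Cre-positive replicate 3 or 4 in cDC1 of the transgene line, or Cre-negative replicate 2 in cDC1 of the deletion line. A total of 5 genes, or 0.038% of those tested, had every Cre-positive library above every control in all 4 comparisons: Itgad, Cox6a2, Plcb1, Plcb4 and Siglecf, a gene of a sialic-acid binding receptor that was noticed after its values were seen. Siglecf was at 0.0492 to 1.04 CPM in control means and was called higher in cDC1 of the transgene line (adjusted p = 0.00125) and in cDC2 of the deletion line (adjusted p = 0.0195), and not in the other comparisons. Ranked by the lowest of the 4 fitted log2 values, Plcb1 stood at 1, Cox6a2 at 4, Itgad at 13, Plcb4 at 42 and Itgax at 143 of the 13166 genes. The antisense gene 4931431B13Rik, with 82 counts in all, stood at 3 and was called in none of the 4 comparisons.

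**Figure D2:**
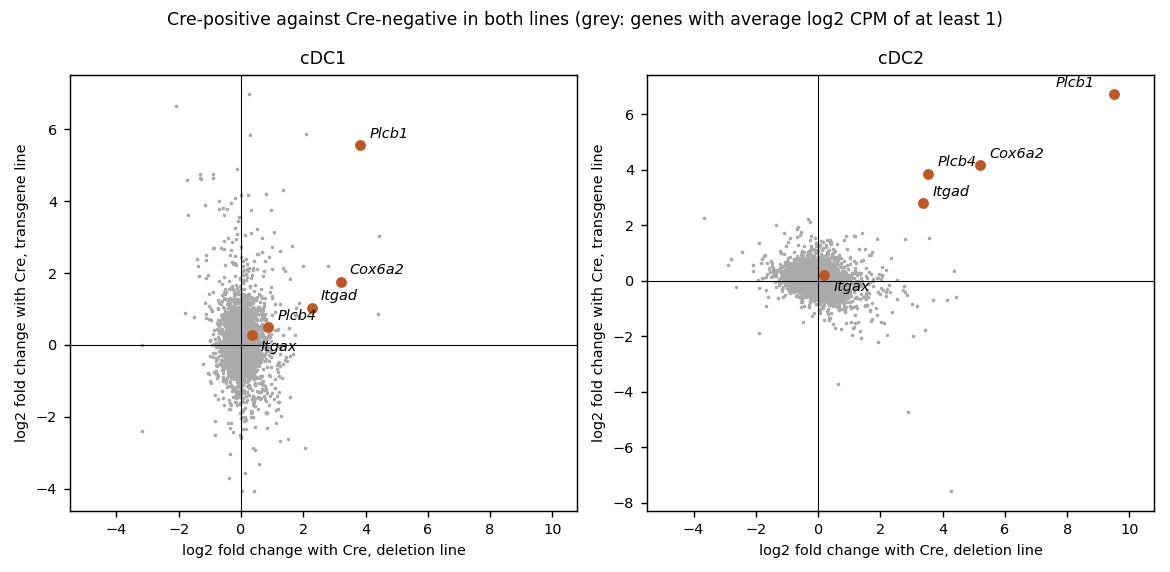
Each point is a gene, placed by its fitted log2 fold change with Cre in the deletion line (horizontal axis) and in the transgene line (vertical axis), for cDC1 on the left and cDC2 on the right. Grey points are other genes whose average log2 CPM reached 1. In cDC2, Itgad, Cox6a2, Plcb1 and Plcb4 lie in the upper right, at log2 values of 3.37 to 9.49 in the deletion line and 2.80 to 6.72 in the transgene line.

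The rise with Cre was larger in cDC2 than in cDC1 for Itgad, Cox6a2 and Plcb4 in both lines, and about equal for Itgax. For Plcb4 the fitted log2 difference was 0.88 (SE 0.14) in cDC1 and 3.54 (SE 0.17) in cDC2 of the deletion line, and 0.50 (SE 0.14) and 3.86 (SE 0.17) in the transgene line. The gap between subsets was therefore 2.66 (SE 0.21) and 3.36 (SE 0.21). For Itgad the gap was 1.09 (SE 0.32) in the deletion line and 1.76 (SE 0.30) in the transgene line. For Cox6a2 it was 1.99 (SE 0.92) and 2.41 (SE 1.02). For Itgax it was -0.14 (SE 0.13) and -0.06 (SE 0.13). Plcb1 had a gap of 5.66 (SE 1.90) in the deletion line and of 1.17 (SE 2.15) in the transgene line, with the loose control levels given above. For Plcb1 and Cox6a2, with few control counts, the approximate SE of a gap need not follow from those of the single subsets.

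Between the lines, the rise in cDC1 was smaller in the transgene line for Itgad, by 1.24 (SE 0.32) on the log2 scale, which goes with its control level of 4.44 CPM there against 2.00 in the deletion line. The other members' differences between lines in cDC1 were -1.44 (SE 1.09) for Cox6a2, -0.06 (SE 0.13) for Itgax, 1.73 (SE 1.70) for Plcb1 and -0.38 (SE 0.19) for Plcb4. In cDC2 they were -0.58 (SE 0.29) for Itgad, -1.02 (SE 0.63) for Cox6a2, 0.02 (SE 0.13) for Itgax, -2.77 (SE 1.72) for Plcb1 and 0.33 (SE 0.22) for Plcb4.

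**Figure D3:**
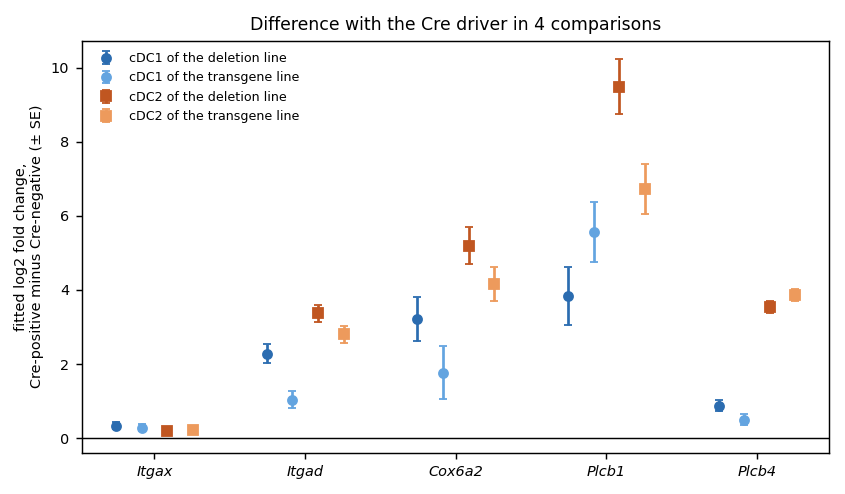
The fitted log2 fold change, Cre-positive minus Cre-negative, is on the vertical axis for each gene and for each of the 4 comparisons. Bars are 1 approximate SE, derived from the F statistic. All values are above 0, from 0.20 for Itgax in cDC2 of the deletion line to 9.49 for Plcb1 in the same comparison.

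Without the driver, the 4 genes other than Plcb1 differed between subsets, in a comparison that was not itself used in their choice. Over the 4 control libraries of each subset, the quasi-likelihood test of edgeR, adjusted by Benjamini-Hochberg, gave Itgax as higher in cDC2 by 0.91 on the log2 scale (SE 0.08, adjusted p = 5.75e-10), Itgad by 1.02 (SE 0.18, adjusted p = 6.1e-05) and Cox6a2 by 2.07 (SE 0.53, adjusted p = 0.00195). Plcb4 was lower in cDC2, with a log2 difference of -2.25 (SE 0.13, adjusted p = 5.5e-13), a 4.77-fold difference in favour of cDC1. Plcb1, with 3 counts in the controls of each subset and past the low-count filter through its Cre-positive groups, had too few counts for this comparison. Such differences were common, since 53.4% of the genes tested were called between the control subsets. The Cox6a2 value was 2.74 without Cre-negative replicate 1 of cDC1 in the transgene line and 1.77 without replicate 2 of that group.

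With the driver all 5 genes were higher in cDC2 than in cDC1, in both lines. The Cre-positive levels compared here entered the choice, so the p-values are not independent of it. Plcb1 passed the low-count filter through these same groups. In the deletion line edgeR gave log2 differences, cDC2 minus cDC1, of 0.87 for Itgax (SE 0.08, adjusted p = 1.14e-09), 2.78 for Itgad (SE 0.17, adjusted p = 2.56e-12), 3.47 for Cox6a2 (SE 0.33, adjusted p = 3.98e-09), 4.76 for Plcb1 (SE 0.35, adjusted p = 8.05e-11) and 0.55 for Plcb4 (SE 0.11, adjusted p = 0.000174). The background was 56.1% of genes called. In the transgene line the edgeR differences were 0.74 for Itgax (SE 0.08, adjusted p = 2.04e-08), 2.11 for Itgad (SE 0.17, adjusted p = 3e-10), 5.06 for Cox6a2 (SE 0.37, adjusted p = 8.11e-11), 1.78 for Plcb1 (SE 0.31, adjusted p = 5.16e-05) and 0.96 for Plcb4 (SE 0.11, adjusted p = 1.24e-07). The background there was 52.9%. The order of the subsets for Plcb4 was thus opposite without and with the driver: its 4 control cDC1 libraries lay above its 4 control cDC2 libraries, and its 8 Cre-positive cDC2 libraries above its 8 Cre-positive cDC1 libraries.

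**Figure D4:**
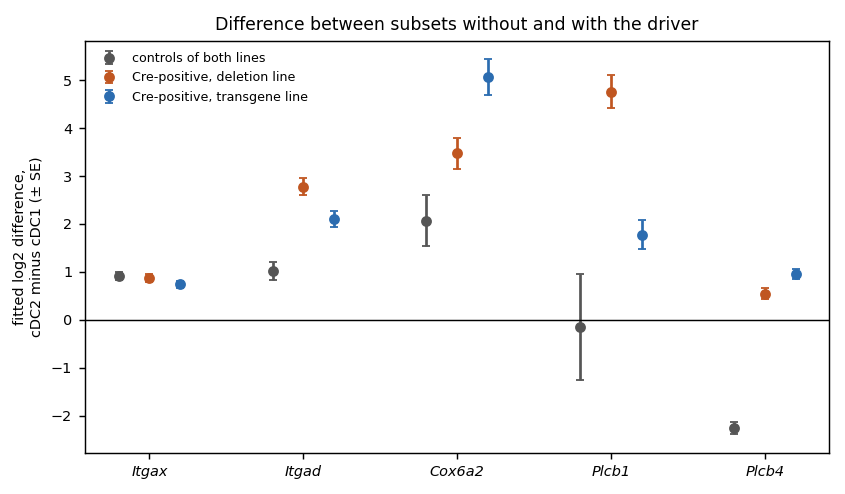
The fitted log2 difference between subsets, cDC2 minus cDC1, is on the vertical axis for each gene in controls of both lines and in Cre-positive libraries of each line. Bars are 1 approximate SE, derived from the F statistic. Plcb4 lies below 0 in controls (-2.25) and above 0 with Cre (0.55 and 0.96), while Itgax stays between 0.74 and 0.91.

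Among Cre-positive libraries the lines also differed. These levels entered the choice too, in cDC1 and in cDC2, so the p-values are not independent of it. Plcb1 again passed the low-count filter through the groups compared. In cDC1, edgeR called Cox6a2 lower in the transgene line than in the deletion line, with a log2 difference of -1.71 (SE 0.38, adjusted p = 0.00261), and Plcb4 lower, at -0.54 (SE 0.11, adjusted p = 0.00113), against a background of 18.8% of genes called. Itgad (-0.09, SE 0.17, edgeR adjusted p = 0.771) and Itgax (-0.10, SE 0.08, edgeR adjusted p = 0.397) did not pass. Plcb1 went the other way, at 1.00 (SE 0.35), and missed the threshold with an edgeR adjusted p of 0.0523, which came to 0.0103 without Cre-positive replicate 4 of the transgene line and 0.0241 without Cre-positive replicate 1 of the deletion line. Over all alternatives its adjusted p ran from 0.0103 to 0.193.

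In cDC2, edgeR called Plcb1 lower in the Cre-positive transgene line, at -1.98 (SE 0.30, adjusted p = 6.16e-05), a 3.95-fold difference, and Itgad lower, at -0.76 (SE 0.16, adjusted p = 0.00154), a 1.70-fold difference, with a background of 15.8%. Itgax was lower, at -0.23 (SE 0.07, edgeR adjusted p = 0.0402). That call was lost without any one of the 4 Cre-positive transgene replicates or of Cre-positive deletion replicates 1 and 2 (adjusted p of 0.0594 to 0.177), and also without the filter on low counts (0.0694). Cox6a2 (-0.12, SE 0.28, edgeR adjusted p = 0.843) and Plcb4 (-0.12, SE 0.11, edgeR adjusted p = 0.511) did not pass.

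Controls of the 2 lines were compared with 2 libraries each. Plcb1, with 0 to 2 counts in a control library and past the low-count filter through its Cre-positive groups, had too few counts for this comparison. Of the other 4 genes edgeR called none between the lines in cDC1, where 0.129% of genes were called, or in cDC2, where 0.137% were. Among these 4 the largest value was that of Itgad in cDC1, 1.16 higher on the log2 scale in the transgene line (SE 0.28, edgeR adjusted p = 0.15). It came to 1.76 with an adjusted p of 0.0366 without Cre-negative replicate 2 of the deletion line, and passed under DESeq2 (adjusted p = 0.0181). At an unadjusted p under 0.05 the edgeR count was 1 member in cDC1 and 2 in cDC2, and DESeq2 called none in cDC2. The number of genes called between controls fell from 17 to 8 and 9 without Cre-negative replicate 1 or 2 of the deletion line in cDC1, and from 18 to 9 and 11 in cDC2.

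Ordered by mean level, Itgad ran from Cre-positive cDC2 of the deletion line (66.6 CPM) and of the transgene line (39.3) through Cre-positive cDC1 of the deletion (9.68) and transgene line (9.12), whose libraries overlapped, to control cDC2 (6.42 and 5.65) and control cDC1 (4.44 in the transgene and 2.00 in the deletion line). Cox6a2 began with Cre-positive cDC2 of both lines (16.8 and 15.5 CPM, overlapping). It went on with Cre-positive cDC1 of the deletion line (1.51), control cDC2 of the transgene line (0.861), Cre-positive cDC1 of the transgene line (0.462) and control cDC2 of the deletion line (0.456), each overlapping the next, and control cDC1 was lowest (0.161 and 0.125). Itgax kept the subsets apart, with all cDC2 libraries (916 CPM or more) above all cDC1 libraries (726 or less) whatever the driver. By mean, for Plcb1 and Plcb4 every Cre-positive group stood above every control group. The lowest Cre-positive library of Plcb4, at 13.9 CPM in cDC1 of the transgene line, nevertheless lay below the highest control, at 14.4 CPM in cDC1 of the deletion line.

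Few of the genes around each neighbourhood were called. Within 1 Mb of the Itgax neighbourhood lie 63 other genes, of which 51 were tested, and within 1 Mb of the Plcb neighbourhood 10, of which 3 were tested. The genes called in any of the 4 comparisons came to 2, both near Itgax and both in cDC1 of the transgene line, where DESeq2 called these 2 and Hsd3b7, an enzyme gene of bile acid synthesis (edgeR log2 -0.46, SE 0.15, adjusted p = 0.0587). The share of all genes called in either direction was 0.0228% and 7% in cDC1 of the deletion and transgene lines, and 5.21% and 0.327% in cDC2. Itgam, 11 kb upstream of Itgax, rose in cDC1 of the transgene line, from 4.34 and 2.51 CPM in the controls to 39.3, 34.3, 24.8 and 10.5 with Cre (log2 2.96, SE 0.42, edgeR adjusted p = 5.21e-05). Its log2 value was 0.66 (SE 0.45, edgeR adjusted p = 0.996) in cDC1 of the deletion line and -0.02 (SE 0.32, edgeR adjusted p = 1) in cDC2 of the transgene line. In cDC2 of the deletion line all 4 Cre-positive libraries of Itgam, at 300 to 312 CPM, lay above the controls at 162 and 169, with a log2 value of 0.89 that did not pass in the fit of all libraries (SE 0.33, edgeR adjusted p = 0.133) and passed in a fit of those 6 libraries alone (0.000394). Sept1, a gene of a cytoskeletal septin whose start lies at -916.8 kb from that of Itgax, fell by 1.46 on the log2 scale in cDC1 of the transgene line (SE 0.16, edgeR adjusted p = 2.3e-06).

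In the other 3 comparisons edgeR called none of the 51 genes, with 0 in cDC1 and 5 in cDC2 of the deletion line and 7 in cDC2 of the transgene line at an unadjusted p under 0.05, and DESeq2 called none there either. Near Plcb1 and Plcb4 neither tool called a gene, and 1 of the 3 had an unadjusted p under 0.05 in cDC2 of each line. The nearest tested genes on the other sides were not called. Beyond Cox6a2, 9130023H24Rik had log2 values of -0.53 to -0.19 (SE 0.38 to 0.39) and Armc5 of -0.31 to 0.12 (SE 0.13 to 0.14) over the 4 comparisons. Before Plcb1, Tmx4 had values of -0.32 to 0.22 (SE 0.14), and beyond Plcb4, Mkks had values of -0.01 to 0.17 (SE 0.20 to 0.21). The smallest edgeR adjusted p among these genes was 0.222, that of Armc5 in cDC2 of the deletion line. The median log2 value of the tested neighbours of the Itgax cluster in the deletion and transgene lines was 0.05 and 0.02 for cDC1, then -0.09 and -0.03 for cDC2. Itgax itself, inside the cluster, differed less in fold than Itgad and Cox6a2 beside it, and more in CPM.

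**Figure D5:**
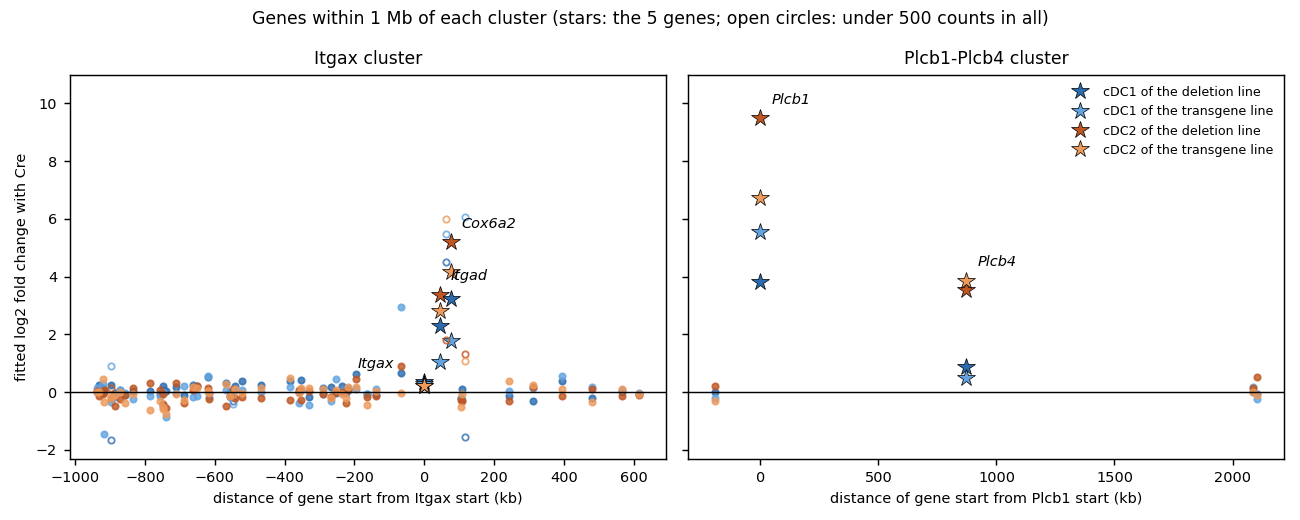
Fitted log2 fold changes with Cre are on the vertical axis and the distance of each gene's start from the start of Itgax (left) or Plcb1 (right), in kb, on the horizontal axis. Stars are the 5 genes, circles other tested genes within 1 Mb of a cluster, open where a gene had under 500 counts in all, and colours the 4 comparisons. Itgad, Cox6a2, Plcb1 and Plcb4 lie above most flanking genes, which are mostly within 1 of 0. Open circles reach higher: 4931431B13Rik lies at 1.82 to 6.01, and Tgfb1i1 at 6.05 in cDC1 of the transgene line. Neither of these genes was called. The filled circle at 2.96 beside Itgax is Itgam in cDC1 of the transgene line, above Itgad (1.04) and Cox6a2 (1.77) there.

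Relatives of the members and partners of their proteins were examined as lists, all with members left out. Of 18 other integrin chains tested, edgeR called none in cDC1 of the deletion line or in cDC2 of the transgene line, where 1 and 2 had an unadjusted p under 0.05 and DESeq2 called 0 and 1. In cDC1 of the transgene line 3 rose (Itgam, Itga9 and Itgb7) and 2 fell (Itgae and Itga3). Itgae, the CD103 chain typical of cDC1, fell by 1.78 (SE 0.38, edgeR adjusted p = 0.00409). Its 2 controls lay far apart, at 92.4 and 270 CPM, and overlapped the Cre-positive libraries at 31.5 to 98.9. Itga8 fell by 2.89 in cDC2 of the deletion line (SE 0.45, edgeR adjusted p = 0.000291). The beta 2 chain Itgb2, with which CD11c and CD11d pair, had log2 values of -0.15 to 0.04 (SE 0.12) over the 4 comparisons, and Itgal, the alpha chain of LFA-1, of -0.25 to 0.15 (SE 0.09), and none was called. Of 11 tested ligands and adaptors of integrins none was called by edgeR in any comparison, 3 in cDC1 of the transgene line and 2 in cDC2 of the deletion line had an unadjusted p under 0.05, and DESeq2 called 1, Fermt3, in cDC2 of the deletion line. The median log2 value of the integrin chains lay between -0.09 and 0.19, and that of all genes between 0 and 0.02.

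The beta forms of phospholipase C beside Plcb1 and Plcb4 are Plcb2 and Plcb3. Plcb2 had log2 values of -0.11 to 0.14 (SE 0.15) and Plcb3 of -0.40 to 0.41 (SE 0.21), none of them called. Among 9 other phospholipase C genes tested, Plcg1, which antigen and growth factor receptors activate, fell by 0.95 in cDC1 of the transgene line (SE 0.14, edgeR adjusted p = 0.000119). Plce1 rose in cDC2 of the deletion line, from a mean of 0.250 to 4.86 CPM (SD 0.353 and 2.61, edgeR adjusted p = 0.00121), and in cDC2 of the transgene line it was at 0 in all 4 Cre-positive libraries against 0.907 CPM (SD 0.860) in the controls (edgeR adjusted p = 0.0249). Of 20 genes of Gq and phospholipase C signalling, 1 rose (Pip4k2a) and 4 fell in cDC1 of the transgene line. Those that fell were Inpp5d, a lipid phosphatase (by 0.52, SE 0.10, edgeR adjusted p = 0.00133), Rasgrp4, a diacylglycerol-binding exchange factor (by 0.59, SE 0.12, edgeR adjusted p = 0.00247), Gna15, a Gq-class alpha subunit (by 0.81, SE 0.17, edgeR adjusted p = 0.00375), and Gnaq. In cDC2 of the deletion line Gna15 rose by 0.97 (SE 0.19, edgeR adjusted p = 0.00381) and Rasgrp2 fell. None of these 20 was called by edgeR or DESeq2 in cDC1 of the deletion line or cDC2 of the transgene line, where 1 and 3 had an unadjusted p under 0.05.

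No other subunit gene of the complex of Cox6a2 was called. Of 13 other cytochrome c oxidase subunit genes tested, none was called by edgeR or DESeq2 in any of the 4 comparisons, and their median log2 value lay between -0.04 and 0.06. At an unadjusted p under 0.05 the edgeR count was 2 in cDC2 of the deletion line and 0 in the other comparisons. Cox6a1, the form of subunit 6A found in most tissues, was at 252 and 256 CPM in control and Cre-positive cDC1 of the deletion line, and at 176 and 171 in cDC2. In the transgene line it was at 268 and 247 CPM in cDC1 and at 175 and 169 in cDC2, so the means with and without Cre lay close together. Per kb of exon, Cox6a1 was at 299 CPM in Cre-positive cDC2 of the deletion line, against the 24.8 of Cox6a2.

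Markers of other cells that express members were followed beside them. Of 10 red pulp macrophage markers, which bear on Itgad, 3 rose in cDC1 of the transgene line (Adgre1, Hmox1 and Spic) and 1 in cDC2 of the deletion line (Slc40a1), and none was called in the other comparisons. Their summed level was 128 to 168 CPM in controls and 151 to 189 with Cre in cDC1 of the deletion line, and 165 to 200 and 263 to 495 in cDC1 of the transgene line. In cDC2 it was 556 to 585 and 468 to 839 CPM in the deletion line, and 443 to 558 and 540 to 651 in the transgene line. Spic, the factor that defines these macrophages, was at 18.2 and 22.4 CPM in control and Cre-positive cDC2 of the deletion line and at 16.0 and 16.4 in that of the transgene line, where Itgad differed 10.4-fold and 6.96-fold. Not all of the list stayed level there: Slc40a1, the iron exporter, went from 34.9 to 133 CPM in cDC2 of the deletion line, with 34.0 to 213 over the Cre-positive libraries, and Mertk from 3.16 to 8.70. In cDC1 of the transgene line Spic went from 5.03 to 19.5 CPM, Adgre1, the gene of F4/80, from 6.80 to 53.2 and Hmox1 from 48.2 to 147.5, where Itgad differed 2.05-fold. For Cd5l the cDC2 means were 2.37 CPM without and 3.32 with Cre in the deletion line, against 1.69 and 3.25 in the other line. The part of these cells in the Itgad values was not tested.

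Striated muscle markers, which bear on Cox6a2, were near 0 apart from 1 gene. Of 12, Myh1, Myh2, Myh4, Myh6 and Mb had no count in any library, and of the 3 tested only Tnni2 was called. Tnni2 fell by 0.77 in cDC1 and by 0.70 in cDC2 of the transgene line (edgeR adjusted p = 0.000592 and 0.0247), and rose by 0.73 in cDC2 of the deletion line (edgeR adjusted p = 0.00432). Of 10 markers of plasmacytoid dendritic cells, 2 fell in cDC1 of the transgene line (Ccr9 and Pacsin1) and none was called elsewhere, with summed levels of 121 to 132 CPM in controls and 129 to 159 with Cre in cDC1 of the deletion line, 121 to 127 and 87.1 to 99.6 in cDC1 of the transgene line, 246 to 312 and 312 to 346 in cDC2 of the deletion line, and 311 to 339 and 254 to 435 in cDC2 of the transgene line. Among 10 cDC1 markers 6 fell in cDC1 of the transgene line, and in cDC2 of the deletion line 1 rose and 2 fell. Among 10 cDC2 markers 6 rose in cDC1 of the transgene line. Of 10 monocyte markers 3 rose in cDC1 of the transgene line and 4 fell in cDC2 of the deletion line. B, T and NK cell markers had 1, 2 and 2 genes lower in cDC1 of the transgene line and 2, 1 and 1 higher in cDC2 of the deletion line, and neutrophil markers had no call. Over all marker lists edgeR called 0 of 86 tested genes in cDC1 of the deletion line, where 3 had an unadjusted p under 0.05 and DESeq2 called 0, and Tnni2 was the 1 called in cDC2 of the transgene line, where 11 had an unadjusted p under 0.05 and DESeq2 called 3. The part of such cells in the members' values was not tested.

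The members followed each other over the 24 libraries. After the mean of each subset and line was taken away from log2 CPM, Pearson's r between pairs of Itgad, Cox6a2, Plcb1 and Plcb4 was 0.92 to 0.95, and that of Itgax with them 0.57 to 0.75. These values describe mostly the step between Cre-negative and Cre-positive libraries, which chose the members. With the mean of each of the 8 groups taken away, r lay between -0.33 and 0.31. Cre-positive replicate 2 in cDC2 of the deletion line was the highest of its group for Cox6a2, Itgax and Plcb1 alike. Among 10065 other genes whose average log2 CPM reached 1, the one most like Itgad, Cox6a2 and Plcb1 by the same measure was Palld, the gene of the actin-binding protein palladin (r of 0.826, 0.811 and 0.78), and for Plcb4 it was Slc22a23 (0.812), followed by Palld (0.804). Slc22a23 was second for Itgad (0.756) and Cox6a2 (0.719), and Ncf1 was next for Itgad (0.737). Endod1 came after them for Cox6a2 (0.716) and second for Plcb1 (0.753), followed by Rassf4 (0.743), and Apol10b came after Slc22a23 and Palld for Plcb4 (0.752). For Itgax the genes with a similar pattern were others, among them Dock8 (0.802) and Bin2 (0.775). All r were taken over the same 24 libraries, and the genes named lie on chromosomes other than those of the members.

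The genes of similar pattern were picked on these same libraries, by a measure that is mostly the Cre step. Their calls and p-values with Cre are therefore a description and no test. Palld had log2 values of 0.57 (SE 0.28) and 0.49 (SE 0.28) in cDC1 of the deletion and transgene lines. In cDC2 of the deletion line it had 0.83 (SE 0.29), and none of these was called. It rose by 1.48 in cDC2 of the transgene line (SE 0.31, edgeR adjusted p = 0.0328), where its mean went from 1.95 CPM (SD 0.278) to 5.45 (SD 0.607). Slc22a23 rose by 1.74 in cDC2 of the deletion line (SE 0.24, edgeR adjusted p = 8.67e-05). Its values were 1.03 (SE 0.24, edgeR adjusted p = 0.0682) in cDC2 of the transgene line and -0.57 (SE 0.21, edgeR adjusted p = 0.101) in cDC1 of that line, so its sign was not shared. Ncf1 and Endod1 were called higher in cDC2 of the deletion line and in no other of the 4 comparisons, by 0.80 (SE 0.13, edgeR adjusted p = 0.000469) and 0.76 (SE 0.14, edgeR adjusted p = 0.00191). Bin2 and Rassf4 were called higher in cDC1 of the transgene line and in no other, by 0.42 (SE 0.12, edgeR adjusted p = 0.0273) and 0.38 (SE 0.10, edgeR adjusted p = 0.0232). Dock8 and Apol10b were called in no comparison.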

How the data were processed

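RNA sequencing libraries of sorted splenic cDC1 and cDC2 were analysed from the deposited whole-number read counts per gene, 1 file for each of the 24 libraries. Per the submitters' processing notes the authors used FastQC 0.11.4, Trimmomatic 0.35, TopHat2 2.1.0 and SAMtools 0.1.18 and the mm10 genome; the program that counted reads, its annotation and whether it used strand were not given there. The deposited files also hold reads in no feature (10.43 to 15.68% of a library) and ambiguous reads (0.9702 to 1.086%), which were left out of library sizes and tests. Of 24421 genes, 13166 passed filterByExpr (minimum count 10, minimum total 15), with TMM factors of 0.9245 to 1.074. Counts were fitted with edgeR 4.0.16 (quasi-likelihood test, R 4.3.3, limma 3.58.1) in 1 model of 8 groups, with Benjamini-Hochberg adjustment over all genes tested and a threshold of 0.05. Each SE was obtained as the log2 value, without its sign, over the square root of the F statistic of that test. Groups came from the sample labels. Python 3.11.15 was used for tables and figures. RefSeq positions (GRCm38.p6) were matched to 24273 symbols, and 148 symbols were not matched.

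The members and all gene lists were chosen with earlier results of these data known. Genes named by rule were the members, Itgam, Itgb2, Cox6a1, Plcb2, Plcb3, Zeb2, genes called higher in all 4 Cre comparisons, and for each member the 3 genes with the most similar pattern (log2 CPM, prior count 2, average of at least 1). One gene that this rule names is not reported here. Called genes of the lists and of the windows of 1 Mb, marker genes named singly, Siglecf and Zfp831 were named after their values were seen. Ratios of summed counts carry exact 95% intervals for counting error only. Alternatives were DESeq2 1.42.0, its size factors, no filter, a filter of 5 CPM in 4 libraries, fits of the compared libraries alone, a replicate block and leaving out each library.

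Replicate numbers were checked for pairing from deviations from group means. Same-numbered Cre-positive cDC1 and cDC2 libraries correlated at 0.101 to 0.111 in the transgene line and at 0.125, 0.17, 0.076 and 0.112 in the deletion line. In controls r was -0.008 and 0.035, and between Cre-negative and Cre-positive libraries -0.1 to 0.07. Differently numbered libraries were not correlated for comparison, so these values do not settle the pairing. The main model took no libraries as paired. The replicate block, an alternative, took a different form in each kind of comparison. For Cre comparisons it gave same-numbered libraries of a line a shared level, whatever their Cre state. For comparisons of subsets, only same-numbered libraries of the same line and Cre state shared a level. The code was tested on simulated data.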

Additional observations from a re-analysis of the deposited data

Results flagged for a closer look

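Among groups of 4 Cre-positive libraries, a single library lay far from the other libraries of its group, relative to the whole range of the group, in 4 of 111 groups checked over 28 genes; chance gives about 1 in 20. Itgad in cDC1 of the transgene line was at 11.74 CPM in Cre-positive replicate 2, and Itgad in cDC2 of the deletion line at 53.34 CPM in Cre-positive replicate 1, the first above and the second below the other libraries. Rasgrp4 in cDC2 of the deletion line was at 53.16 CPM in Cre-positive replicate 3, and Palld in cDC1 of the deletion line at 18.3 CPM in Cre-positive replicate 2, both above the others.

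Several genes that are not members had a difference with Cre that itself differed between subsets or lines, by edgeR's test of the difference of log2 differences. Between subsets (cDC2 minus cDC1) in the transgene line it was -2.98 for Itgam (SE 0.51, adjusted p = 0.0014), 1.12 for Sept1 (SE 0.23, adjusted p = 0.00898) and 1.60 for Slc22a23 (SE 0.31, adjusted p = 0.00514). In the deletion line it was -2.82 for Itga8 (SE 0.59, adjusted p = 0.0176) and 1.54 for Slc22a23 (SE 0.31, adjusted p = 0.0122), so Slc22a23 had the same sign in both lines. Between lines (transgene minus deletion) in cDC1 it was 2.30 for Itgam (SE 0.61, adjusted p = 0.0409), -1.44 for Sept1 (SE 0.24, adjusted p = 0.000861), -1.06 for Plcg1 (SE 0.21, adjusted p = 0.00507), -0.56 for Inpp5d (SE 0.14, adjusted p = 0.0332), -0.92 for Gna15 (SE 0.25, adjusted p = 0.0424) and -0.74 for Rasgrp4 (SE 0.17, adjusted p = 0.0171). In cDC2 it was 3.45 for Itga8 (SE 0.64, adjusted p = 0.00258), -1.43 for Gna15 (SE 0.27, adjusted p = 0.00288) and -0.64 for Ncf1 (SE 0.18, adjusted p = 0.039). Slc22a23 and Ncf1 were picked for a pattern like that of members in these libraries, so their p-values are not independent of that choice.

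For Plce1 the fitted differences were 4.46 between subsets in the deletion line (SE 0.85, adjusted p = 0.0122), -7.05 between subsets in the transgene line (SE 1.69, adjusted p = 0.0327) and -11.84 between lines in cDC2 (SE 1.56, adjusted p = 0.000123). The last 2 involve a group in which Plce1 had no count, so their size depends on the prior count.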

How the results depend on the processing

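Of 240 alternative values of the members' Cre differences, 230 moved by less than 1 SD between replicates, and all 10 others came from leaving out a control. Of 430 alternative values of their other comparisons, 417 kept direction and side of the threshold, 6 newly passed and 7 no longer passed, and no direction reversed past the threshold. Numbers of called genes moved more (genes higher with Cre in the Cre comparisons, either direction between controls), and the cause was not tested. Under DESeq2 they were 5 in place of 3 in cDC1 and 466 in place of 307 in cDC2 of the deletion line, 59 in place of 15 in cDC2 of the transgene line, and between controls of the lines 53 in place of 17 in cDC1 and 70 in place of 18 in cDC2. Without the filter on low counts, 36 were higher in cDC2 of the transgene line and 30 differed between cDC2 controls. In fits of the compared libraries alone, which hold fewer samples, the numbers were 0 in cDC1 of the deletion line, 256 in place of 472 in cDC1 and 29 in cDC2 of the transgene line, 97 between cDC2 controls and 0 higher in all 4 comparisons. The replicate block gave 35 in cDC2 of the transgene line and 5 neighbours called in place of 2. Under it the 2 genes higher in all 4 comparisons were Cox6a2 and Itgad, not Itgad and Plcb4. It changed no member's call between subsets. It was not run between lines, whose replicate numbers belong to different mice. Leaving out 1 library gave 1 to 3 and 72 to 291 in cDC1 and cDC2 of the deletion line, 267 to 516 and 7 to 17 in the transgene line, 8 to 13 and 9 to 12 between cDC1 and cDC2 controls, and 0 to 2 in all 4 comparisons. Under the stricter filter Plcb1 passed between Cre-positive cDC1 of the lines (edgeR adjusted p = 0.0494), as it did under DESeq2 (0.0274). Depth limits Plcb1 and Cox6a2 in controls, where libraries held at most 2 Plcb1 counts.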
